A study of Mus musculus with 49 samples.

Results

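A set of 10 genes of the mouse dorsal root ganglion (DRG), the ganglion that holds the cell bodies of sensory neurons, is described here: Phtf1, A930005H10Rik, Capza1, Hfm1, Zfp605, Gm7120, Sord, B3gat2, Gm14295 and Gm14305. They were chosen by name, on the results of these same libraries, as genes with a steady difference between sickle and control mice and no known role in red blood cell formation. Its direction was the same in each of the 4 settings of age and treatment for all 10 genes. Its size differed between settings, most in Gm14295 and Gm14305 and also in Sord, Zfp605, A930005H10Rik and Capza1, as given below. All 10 were found among the 24393 named genes of the count table, and all 10 passed the filter on low counts that left 15974 genes. Since the sickle-control difference chose them, that difference is given as a description, and tests are given on treatment, age, spread between mice and the link to the erythroid gene Alas2.

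RNA of the DRG was sequenced from HbSS-BERK mice and HbAA-BERK mice at 2 and at 5 months of age. Both lines lack the mouse α and β globins and carry transgenes for human globins. The HbSS-BERK line makes sickle hemoglobin and serves as a model of sickle cell disease, and the HbAA-BERK line makes normal human hemoglobin A. The study's methods describe crosses between the lines and a mixed background common to both. Mice of each line and age were kept in room air (normoxia) or underwent hypoxia/reoxygenation (H/R), with 3 h at 8% O2 and then 1 h in room air. The exposure was repeated after a week and the DRG were taken a day after the second one. The 8 groups held 6 libraries each, apart from 7 of control mice at 2 months after H/R and 5 of sickle mice at 5 months in normoxia, which gave 25 control and 23 sickle libraries. Sickle and control mice differ in the human globin they carry, and the effect of that globin and of any other inherited difference between the lines cannot be told apart in this design.

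The libraries held 12.1 to 24.8 M assigned reads (M for mega, as in Mb). All values below are CPM (reads of a gene per M reads of its library) on TMM-scaled library sizes unless another scale is named. Sensory neuron markers were present in every library, with a summed level of 6136 to 9641 CPM. In 4 control libraries Alb, a hepatocyte gene, stood over 20 CPM (26.3 to 335 CPM). Summed muscle markers ran from 109 to 3994 CPM in control and from 230 to 3048.5 CPM in sickle libraries. Summed neutrophil markers ran from 75.2 to 1162 CPM in control and from 103 to 1090 CPM in sickle libraries. Neither was used as a term in a fit. Replicates 1 to 3 (1 to 4 in the group of 7) and the remaining replicates also stood apart, since deviations from the group means correlated with a median r of 0.31 between libraries of other groups on the same side of that divide and -0.32 across it. Leaving out the libraries with Alb, or adding the divide as a term (which drops 4 control libraries with no replicate number), left each of the 10 sickle-control differences called in the same direction, and no member was called for H/R, age or the Alas2 slope in either fit. In bulk tissue, fewer cells of a type and less RNA per cell cannot be told apart.

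The genes belong to unrelated families. Phtf1 encodes a membrane protein known best from male germ cells, in spite of its name as a putative homeodomain factor. Capza1 encodes an α subunit of the capping protein that closes the growing ends of actin filaments. Sord encodes sorbitol dehydrogenase, which turns sorbitol into fructose in the polyol pathway, a route studied in the peripheral nerve because sorbitol builds up there in diabetes. B3gat2 encodes a glucuronyltransferase of the HNK-1 glycan, a sugar epitope on adhesion proteins of neurons and glia. Hfm1 encodes a DNA helicase needed for crossing over in meiosis. Zfp605, Gm14295 and Gm14305 are annotated as protein-coding genes, the first a zinc finger gene and the other pair members of the zinc finger cluster of distal chromosome 2. Gm7120 is listed by RefSeq as Tmem267, a transmembrane protein, and A930005H10Rik is a long noncoding RNA. Alas2, the comparison gene, encodes the first enzyme of heme synthesis in red cell precursors.

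By RefSeq (GRCm38.p6) the 10 genes lie on 5 chromosomes. Phtf1 (chr3:103968110-104007490) and Capza1 (chr3:104822781-104864505) are 0.815 Mb apart, and A930005H10Rik (chr3:115881578-115888130) lies 11.02 Mb beyond. Hfm1 (chr5:106840193-106926712) and Zfp605 (chr5:110110028-110131536) are separated by 3.18 Mb. Gm14305 (chr2:176708353-176721813) and Gm14295 (chr2:176798179-176814092) are separated by 0.0764 Mb, and Sord (chr2:122234839-122265337) lies 54.4 Mb from the former. Gm7120 (chr13:119488086-119610459) and B3gat2 (chr1:23761926-23847865) have no other member on their chromosome.

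Promoter sequence is shown for the gene that was higher in sickle mice (Zfp605), for 2 that were lower (Phtf1 and Capza1) and for Alas2, to set the letters before the start of the genes beside those of an erythroid gene. Each stretch ends at the base before the RefSeq start of the gene and reads 5′ to 3′ on the gene's strand, and capitals mark AGATAA or its reverse complement TTATCT, the core letters that erythroid GATA factors bind. The stretches are chr5:110109842-110110027 (plus strand), chr3:103967860-103968109 (plus), chr3:104864506-104864755 (minus) and chrX:150547167-150547416 (plus).
Zfp605: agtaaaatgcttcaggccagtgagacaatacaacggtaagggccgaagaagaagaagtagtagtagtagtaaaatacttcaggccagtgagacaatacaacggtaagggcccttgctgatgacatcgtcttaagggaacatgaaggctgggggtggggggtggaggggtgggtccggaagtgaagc
Phtf1: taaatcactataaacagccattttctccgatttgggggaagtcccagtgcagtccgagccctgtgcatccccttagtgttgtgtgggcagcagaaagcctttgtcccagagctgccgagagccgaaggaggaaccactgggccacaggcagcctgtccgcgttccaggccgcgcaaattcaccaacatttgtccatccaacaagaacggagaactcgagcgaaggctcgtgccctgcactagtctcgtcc
Capza1: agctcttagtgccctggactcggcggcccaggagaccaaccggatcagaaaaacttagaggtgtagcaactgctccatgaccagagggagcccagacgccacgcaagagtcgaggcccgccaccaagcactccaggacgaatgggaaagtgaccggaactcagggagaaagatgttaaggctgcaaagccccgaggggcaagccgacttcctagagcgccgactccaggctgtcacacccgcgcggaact
Alas2: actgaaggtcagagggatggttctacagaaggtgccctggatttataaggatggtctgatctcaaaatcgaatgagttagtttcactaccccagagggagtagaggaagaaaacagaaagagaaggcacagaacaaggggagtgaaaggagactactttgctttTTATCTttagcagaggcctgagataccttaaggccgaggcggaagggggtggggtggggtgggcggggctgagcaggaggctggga
Searched on both strands in windows from 250 bases before to 50 after the start, the motif was held by the window of Alas2 and by 0 of 13 windows of 9 members (all but B3gat2). It was held by 11.2% of the 32851 RefSeq windows. A second motif searched, CCACACCC or its reverse complement (the letters of erythroid KLF1 sites), was in 0 of the 13 windows and not in that of Alas2 either, beside 3.56% of all windows. These letters are thus not in those windows, and nothing about a factor was read from either.

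A single read of 50 bases cannot always be placed, and the pairing of reads was not taken into account here. For Gm14295, 74.8% of the 50-base stretches of its GENCODE M21 transcripts occur also in transcripts of other genes, and for Gm14305 88.9%, with 53 and 56 other genes involved. An example is a stretch from a protein-coding transcript of Gm14295 of 1213 bases. It opens the longest reading frame found in that transcript that ends in a stop codon (bases 462 to 665). It is shown because it is shared with Gm14305 and the transcripts of 9 other genes in all.
Gm14295 and Gm14305: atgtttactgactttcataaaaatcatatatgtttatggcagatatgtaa
The figure was 64.5% for Capza1 (4 other genes, St7l on the opposite strand among them), 31.3% for Sord (Gm6652) and 28.9% for B3gat2 (the oppositely oriented Smap1), and it was under 10% for the other 5 members. The library kit does not mark strand, so reads of a member and of an overlapping gene on the other strand cannot be told apart. By GENCODE M21 the overlapping genes in the count table were Magi3 and Phtf1os (beside Phtf1), Dph5 (A930005H10Rik), St7l (Capza1), Smap1 (B3gat2) and 3110070M22Rik (Gm7120). Their log2 fold changes of sickle over control were -0.05, 0.27, -0.15, -0.09, -0.11 and -1.11 in that order. Dph5 (adjusted p = 0.00821) and 3110070M22Rik (adjusted p = 0.000371) were called by edgeR's quasi-likelihood test, and the other 4 were not.

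In the fit of all 8 groups the 10 genes were the ones chosen for being called, 9 lower and 1 higher in sickle mice, where 10.9% of all genes tested were called. Their log2 fold changes ran from -2.41 (Gm14295) to 1.38 (Zfp605), with a median size of 1.24 where the median over all genes tested was 0.06. In size they ranked between place 48 (Gm14295) and place 621 (Sord) of 15974 genes. In 3 of them, Phtf1, Hfm1 and Zfp605, no sickle library overlapped any control library, which held for 0.0313% of all genes tested (5 genes). The other 2 such genes were Hba-x, an embryonic globin gene, and Rsad2, an interferon-induced gene.

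**Figure D1:**
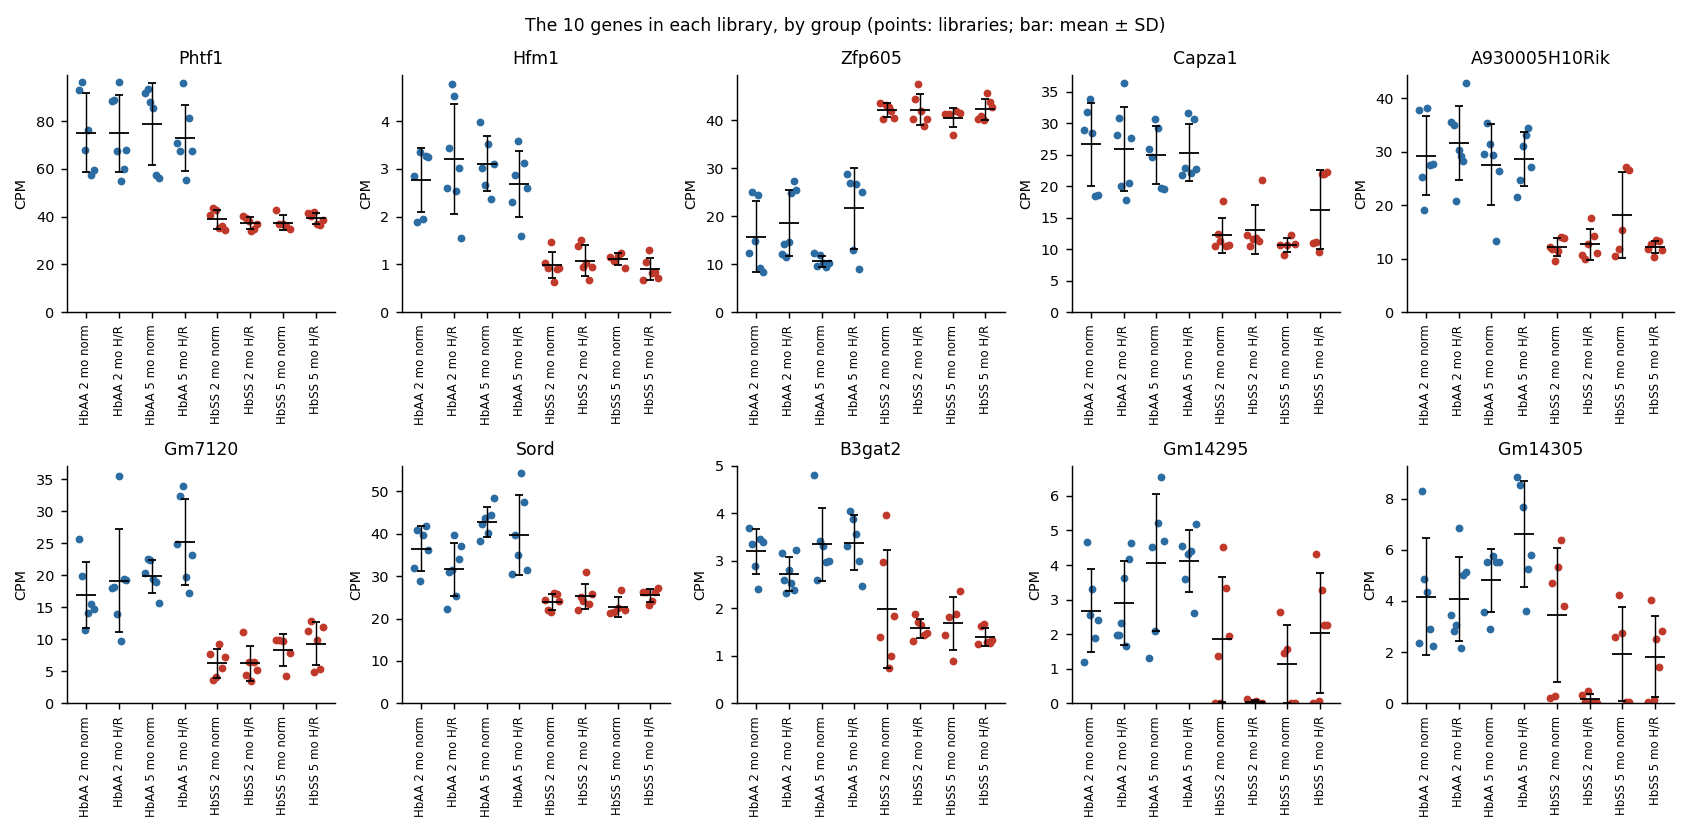
CPM of the 10 genes in every library, grouped by line (blue, HbAA-BERK control; red, HbSS-BERK sickle), age and treatment; points are libraries and bars give the mean ± SD of a group. Sickle and control libraries do not overlap in Phtf1, Hfm1 and Zfp605, and 12 of the 23 sickle libraries lie near 0 in Gm14295 and Gm14305.

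Zfp605 was the member that was higher in sickle mice. Its level was 36.9 CPM at the lowest, 41.4 CPM at the median and 47.6 CPM at the highest in sickle libraries, and 8.31, 12.98 and 28.9 CPM in control libraries. The sickle libraries thus lay within a narrow band, and the control libraries fell on either side of an empty stretch, 16 of them at up to 14.8 CPM and 9 at 24.5 CPM or more. The upper 9 were 2 of 6 at 2 months in normoxia, 3 of 7 at 2 months after H/R, 0 of 6 at 5 months in normoxia and 4 of 6 at 5 months after H/R. The group means were 15.7 ± 7.40, 18.6 ± 6.94, 10.6 ± 1.15 and 21.6 ± 8.39 CPM (SD) in that order in control mice, and 42.1 ± 1.42, 42.2 ± 3.28, 40.6 ± 2.07 and 42.3 ± 2.26 CPM in sickle mice. The log2 fold change over all groups was 1.38 (SE 0.11), and by setting it was 1.42 (0.25) and 1.17 (0.20) at 2 months in normoxia and after H/R and 1.93 (0.08) and 0.97 (0.24) at 5 months.

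Phtf1 was lower in sickle mice, with 33.8 CPM at the lowest, 37.0 CPM at the median and 43.6 CPM at the highest, where control libraries ran from 54.9 through a median of 70.8 to 96.3 CPM. Here too the sickle libraries were close together, and the control libraries were spread more widely. Its log2 fold change was -0.98 (SE 0.07) over all groups and -0.97 (0.14), -1.02 (0.13), -1.07 (0.15) and -0.90 (0.11) in the 4 settings, in the order of age and of normoxia before H/R. Both lines had lower Phtf1 in the later replicates: sickle libraries averaged 40.7 ± 2.07 CPM in replicates 1 to 3 (n = 11) and 35.9 ± 1.33 CPM in the rest (n = 12), and control libraries 85.0 ± 11.9 CPM (n = 13) and 68.6 ± 11.6 CPM (n = 8). The lines did not overlap on either side of the divide.

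Hfm1 was scarce in both lines. Sickle libraries held 0.629 CPM at the lowest, 0.948 CPM at the median and 1.52 CPM at the highest, and control libraries held 1.55, 3.02 and 4.77 CPM. The lowest control library and the highest sickle library were thus nearly level, although the ranges did not cross. Its log2 fold change was -1.53 (SE 0.12) over all groups and moved between -1.59 and -1.47 over the 4 settings.

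Capza1 was at 9.08 CPM at the lowest, 11.3 CPM at the median and 22.2 CPM at the highest in sickle libraries, and at 17.8, 25.9 and 36.4 CPM in control libraries. Of the sickle libraries 18 lay at up to 12.4 CPM and 5 at 17.6 CPM or more, with none between. Those 5 were replicate 4 at 2 months in normoxia (17.6 CPM), replicate 6 at 2 months after H/R (21.0 CPM) and replicates 4, 5 and 6 at 5 months after H/R (21.96, 21.91 and 22.24 CPM), all from the later replicates. The log2 fold change was accordingly smallest at 5 months after H/R, at -0.63 (SE 0.23), beside -1.15 (0.18), -1.004 (0.19) and -1.22 (0.14) in the other 3 settings.

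A930005H10Rik ran from 9.47 CPM through a median of 12.3 CPM to 27.1 CPM in sickle libraries and from 13.3 through 29.5 to 42.8 CPM in control libraries. In sickle mice 21 libraries were at up to 17.7 CPM, and replicates 5 and 6 at 5 months in normoxia stood at 27.1 and 26.5 CPM, near the control median. The lowest control library, at 13.3 CPM, was one of the 2 without a replicate number at 5 months in normoxia. The log2 fold change in that setting was -0.60 (SE 0.28), beside -1.28 (0.16), -1.34 (0.16) and -1.23 (0.12) elsewhere.

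Gm7120 was at 3.57, 7.25 and 12.8 CPM (lowest, median and highest) in sickle libraries and at 9.77, 19.4 and 35.5 CPM in control libraries. Of the control libraries 23 lay above the highest sickle library, and 16 of the 23 sickle libraries lay below the lowest control library. Its log2 fold change was -1.44 (SE 0.14), with -1.45, -1.64, -1.26 and -1.43 in the 4 settings.

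Sord, the sorbitol dehydrogenase gene, had the smallest difference of the 10. Sickle libraries lay between 21.2 and 30.9 CPM with a median of 24.2 CPM, and control libraries between 22.3 and 54.3 CPM with a median of 38.3 CPM. Only 6 sickle libraries fell below the lowest control library, while 21 control libraries rose above the highest sickle library. The log2 fold change was -0.62 (SE 0.06), from -0.34 (0.12) at 2 months after H/R to -0.91 (0.08) at 5 months in normoxia.

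B3gat2 was at 0.743, 1.48 and 3.97 CPM in sickle libraries and at 2.32, 3.17 and 4.80 CPM in control libraries. Replicates 2 and 3 of sickle mice at 2 months in normoxia, at 2.97 and 3.97 CPM, and replicate 6 at 5 months in normoxia, at 2.37 CPM, lay within the range of the controls, and the other 20 lay below it. Its log2 fold change was -0.93 (SE 0.12) in all and -0.70 (0.35), -0.79 (0.14), -0.999 (0.24) and -1.26 (0.16) in the 4 settings.

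Gm14295 and Gm14305, the pair from the zinc finger cluster, fell on either side of an empty stretch within the sickle line. In 12 sickle libraries both were under 0.5 CPM, at no more than 0.132 CPM of Gm14295 and 0.474 CPM of Gm14305, and in the other 11 both were at 1.36 CPM or more. No control library was under 0.5 CPM in either gene, with Gm14295 from 1.21 to 6.54 CPM and Gm14305 from 2.17 to 8.84 CPM. The 12 libraries were all 6 of 2 months after H/R and 2 of each other sickle group. At 2 months after H/R Gm14295 read 0.132, 0, 0, 0.0567, 0 and 0 CPM in replicates 1 to 6, and Gm14305 read 0.329, 0.0607, 0.474, 0, 0.0553 and 0 CPM. At that age and treatment no sickle library came near the lowest control library. In sickle mice at 2 months in normoxia Gm14295 read 0, 1.36, 0, 4.52, 3.32 and 1.95 CPM in replicates 1 to 6, and Gm14305 read 0.192, 4.71, 0.305, 5.32, 6.39 and 3.80 CPM. At 5 months in normoxia Gm14295 read 2.65, 1.45, 1.57, 0 and 0 CPM in replicates 2 to 6, and Gm14305 read 2.59, 4.22, 2.74, 0.0539 and 0.0658 CPM. At 5 months after H/R Gm14295 read 0, 4.33, 0.0615, 3.28, 2.25 and 2.26 CPM, and Gm14305 read 0.0523, 4.04, 0.123, 2.52, 1.41 and 2.81 CPM. The same libraries were thus near 0 in both genes and the rest stood within the range of the controls or close below it. Gm14295 had no read in 9 sickle libraries, where 0 reads allow up to 0.156 to 0.207 CPM (3 reads), a limit for counting error only.

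At 2 months after H/R the sickle libraries held 3 reads of Gm14295 in all where the control libraries held 334, a ratio of 0.0104 per assigned read (exact 95% counting interval 0.00214 to 0.0307). For Gm14305 the sums were 15 and 470 reads, a ratio of 0.0370 (0.0205 to 0.0617). At 2 months in normoxia the sums were 218 and 272 reads of Gm14295 and 403 and 411 reads of Gm14305. The fitted log2 fold changes at 2 months in normoxia were -0.51 (SE 0.70) and -0.27 (0.61), within their error of 0. At 5 months they were -1.83 (0.71) and -1.31 (0.63) in normoxia, and -1.01 (0.65) and -1.85 (0.60) after H/R. Since most reads of these genes match several copies, the values may hold reads of other cluster members.

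**Figure D2:**
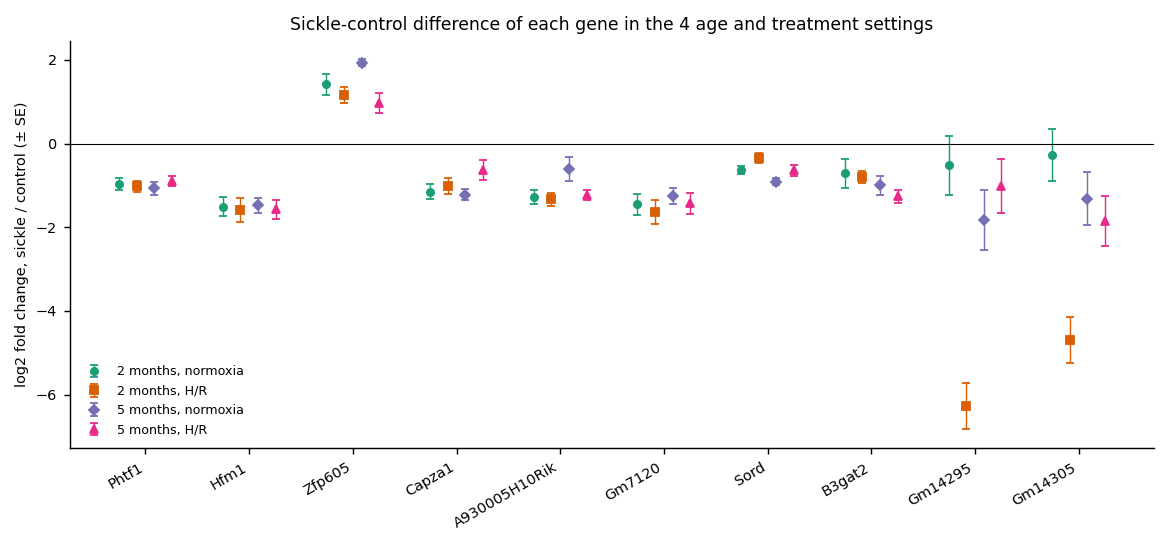
Log2 fold change of sickle over control (vertical axis, ± SE) of each of the 10 genes in the 4 settings of age and treatment, from a separate fit of each setting. The points of Phtf1 and Hfm1 lie closest together, and those of Gm14295 run from -0.51 to -6.28, where the last depends on the prior count of the fit because the sickle libraries are near 0.

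By setting, 7 of the 10 genes were called at 2 months of age in normoxia and 8 after H/R, and 6 were called at 5 months under either treatment. In the same order, 1.55%, 0.158%, 1% (normoxia) and 2.31% (H/R) of all genes tested were called. These counts belong to the contrast that chose the genes and nothing is read from them. At 2 months after H/R they depended on single libraries: of 13 fits that left out 1 library each, B3gat2 was called in 0, Hfm1 and Gm7120 in 2 and Zfp605 in 4 (edgeR), while the 4 others among the 8 were called in all 13. At 5 months after H/R Sord was called in 7 of 12 such fits. In normoxia same-numbered libraries correlated, but so did libraries of other groups on the same side of the divide between earlier and later replicates. A pairing by number was therefore not shown. For normoxic mice, a fit blocked by that number called 78 genes at 2 months and 286 at 5 months. That fit leaves out the unnumbered control libraries, and without them but with no block the counts were 132 and 111, beside 235 and 153 with all libraries.

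The effect of H/R itself was tested over both lines, although steadiness of the sickle-control difference over treatment bore on the choice of the genes. None of the 10 was called for H/R against normoxia over both lines and ages, where 0.0626% of genes were called (10 genes by edgeR, 1099 at an unadjusted p under 0.05, and 36 by DESeq2). The largest log2 differences were -1.17 (SE 0.45) for Gm14295, -1.03 (0.35) for Gm14305 and 0.34 (0.11) for Zfp605, with adjusted p of 0.55, 0.44 and 0.40 by edgeR. These 3 were also the genes with an unadjusted p under 0.05. For the other 7 the differences lay between -0.20 (B3gat2) and 0.17 (Capza1), with SEs of 0.06 to 0.14. All 6 sickle libraries of 2 months after H/R were near 0 in both genes of the zinc finger pair.

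Age gave no call among all genes (0%) by edgeR, while 1068 genes (6.69%) had an unadjusted p under 0.05 and DESeq2 called 19. Of the 10 members 4 had an unadjusted p under 0.05, Gm14295, Gm14305, Gm7120 and Sord. The largest log2 differences of members, 5 against 2 months, were 1.54 (SE 0.44) for Gm14295, 0.90 (0.35) for Gm14305 and 0.40 (0.14) for Gm7120, with adjusted p of 0.32, 0.63 and 0.51. Sord differed by 0.13 (0.06), and the other 6 by -0.10 to 0.07. The SEs set what could be seen: for the zinc finger pair they were 0.44 and 0.35 on the log2 scale, and for Phtf1 and Sord they were 0.07 and 0.06.

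**Figure D3:**
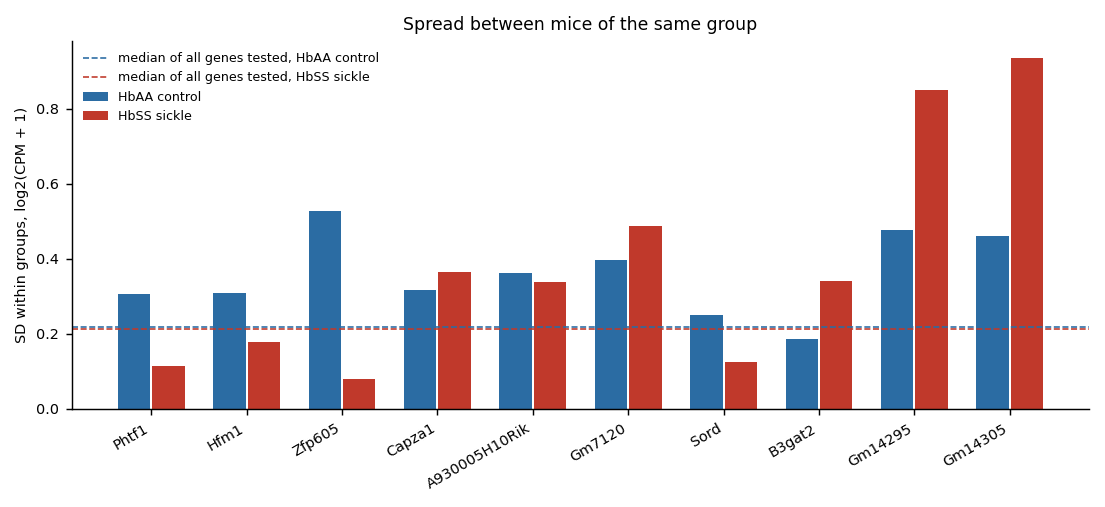
SD of log2(CPM + 1) between mice of the same group (bars, pooled over the 4 groups of a line) for the 10 genes, with dashed lines at the median over all genes tested (0.22 in control and 0.21 in sickle mice). Zfp605 and Phtf1 have shorter red than blue bars, and Gm14295 and Gm14305 the opposite.

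Mice of the same group differed in these genes to very unequal degrees. The within-group SD of log2(CPM + 1) in control mice was 0.53 for Zfp605 and 0.31 for Phtf1, and in sickle mice 0.08 and 0.11, where the median over all genes tested was 0.22 and 0.21. Among all genes tested Zfp605 was thus at percentile 95.9 in control mice and at 2.50 in sickle mice. Gm14305 went the other way, with 0.46 in control and 0.94 in sickle mice. Gm14295 had 0.48 and 0.85, a difference that did not pass the test below (adjusted p = 0.17 by limma). In sickle mice this pair was at percentile 99.8 and 99.6. The SDs in control and sickle mice were 0.31 and 0.18 for Hfm1, 0.25 and 0.12 for Sord, 0.40 and 0.49 for Gm7120, 0.32 and 0.37 for Capza1, 0.36 and 0.34 for A930005H10Rik, and 0.19 and 0.34 for B3gat2, none of which passed the test. By limma on the absolute deviations from the group mean, 0.783% of genes were called, and of the 10 members 3 were: Zfp605 (mean deviation lower in sickle mice by 0.38, SE 0.05, adjusted p = 4.14e-06), Phtf1 (lower by 0.17, SE 0.03, adjusted p = 0.00225) and Gm14305 (higher by 0.40, SE 0.09, adjusted p = 0.0160). Taken from the group median in place of the mean, the deviations gave 6 called genes in place of 125 and the 3 members lost their calls (adjusted p of 0.22, 0.52 and 0.84). The differences themselves were then -0.34 (SE 0.09) for Zfp605, -0.16 (0.05) for Phtf1 and 0.34 (0.16) for Gm14305, close to those above with larger SEs. Gm14305 also lost its call without sickle replicate 1 or 3 at 2 months in normoxia or sickle replicate 5 or 6 at 5 months in normoxia, mice near 0 in the gene (adjusted p from 0.0811 to 0.133). Steadiness was asked for when the genes were chosen, so a low spread is in part that choice. Within replicates 1 to 3 alone the SD of Zfp605 was 0.39 in control and 0.07 in sickle mice, and within the rest 0.58 and 0.07.

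The link to red cell precursors was measured within groups, so that the sickle-control difference played no part. Alas2 ran from 10.4 through a median of 30.4 to 118 CPM in control libraries and from 88.4 through 233 to 575 CPM in sickle libraries. Between mice of 1 group the slope on log2 Alas2 was called for 5.37% of genes tested and for 0 of the 10 members (edgeR quasi-likelihood test). Of the other 11 erythroid marker genes 9 were tested and all 9 were called with a positive slope, at 0.51 to 1.23 log2 units per log2 unit of Alas2. The slopes of the members lay between -0.16 (Hfm1, SE 0.09, adjusted p = 0.44) and 0.14 (A930005H10Rik, SE 0.08, adjusted p = 0.48). Sord, with 0.09 (SE 0.05), was the only member with an unadjusted p under 0.05, and its adjusted p was 0.36. The slopes of Gm14295 (-0.02, SE 0.29) and Gm14305 (-0.07, SE 0.26) were the least precise.

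**Figure D4:**
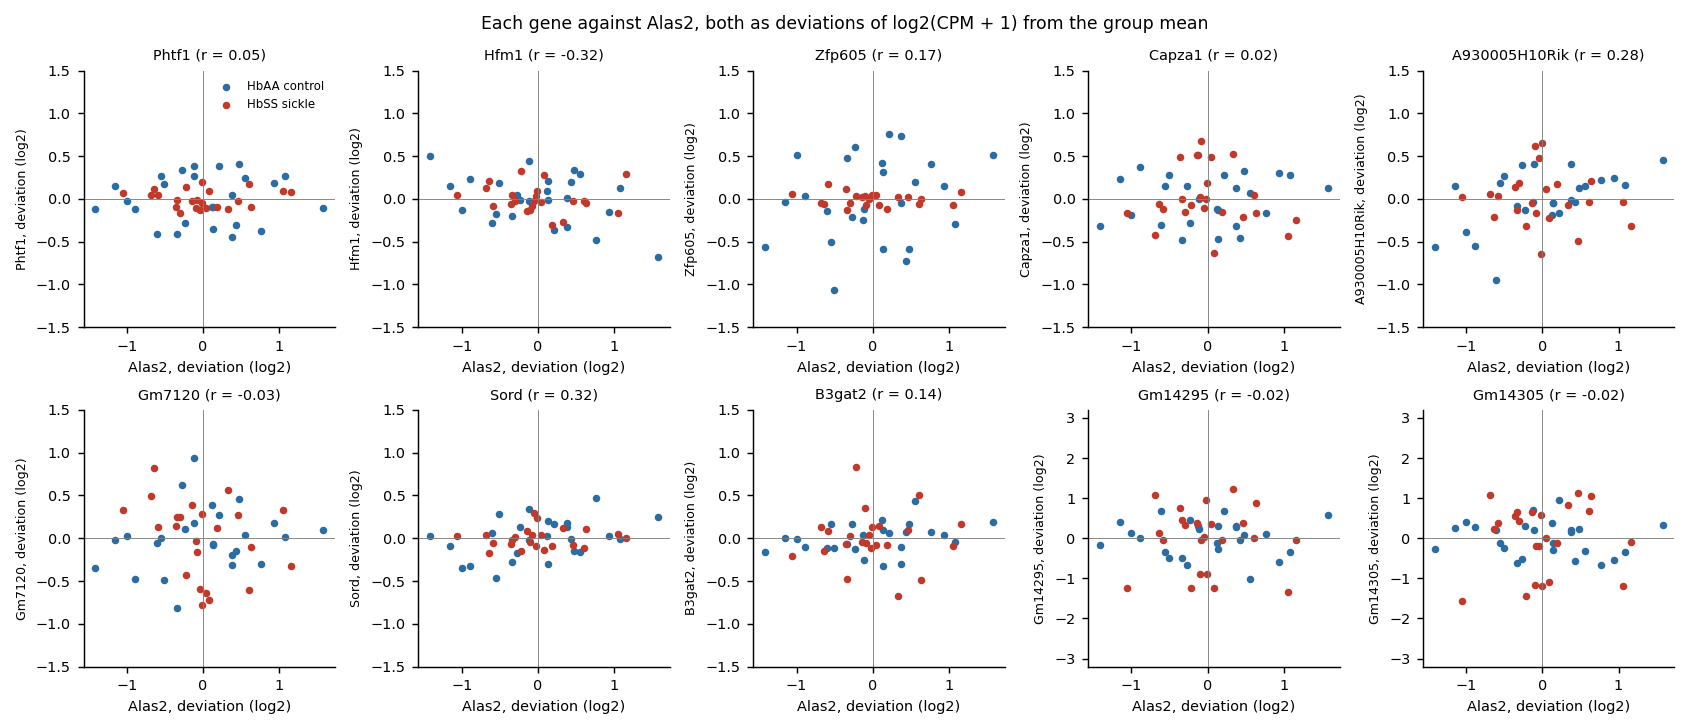
Each of the 10 genes (vertical axis) against Alas2 (horizontal axis), both as deviations of log2(CPM + 1) from the group mean, 1 point a library (blue, control; red, sickle). The correlation in each title runs from -0.32 (Hfm1) to 0.32 (Sord), and the vertical scale is wider for Gm14295 and Gm14305.

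Correlations of the same deviations gave the same picture. Of 55 relations computed (10 with Alas2 and 45 between members, n = 48 libraries, 100000 permutations within groups), none with Alas2 passed an adjusted p of 0.05. The strongest were Hfm1, with Pearson's r = -0.32 (permutation p = 0.0796, adjusted 0.29) and Spearman's rho = -0.18 (permutation p = 0.275, adjusted 0.58), and Sord, with r = 0.32 (permutation p = 0.0658, adjusted 0.28) and rho = 0.27 (permutation p = 0.0892, adjusted 0.35). Without the 2 libraries farthest from the median of Alas2, r was -0.09 for Hfm1 and 0.29 for Sord, so the relation of Hfm1 rested on those libraries. Within the earlier and the later replicates r was -0.13 and -0.80 for Hfm1 and 0.27 and 0.40 for Sord. A930005H10Rik had r = 0.28 (0.55 in control and -0.14 in sickle mice), and the other 7 lay between -0.03 and 0.17.

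**Figure D5:**
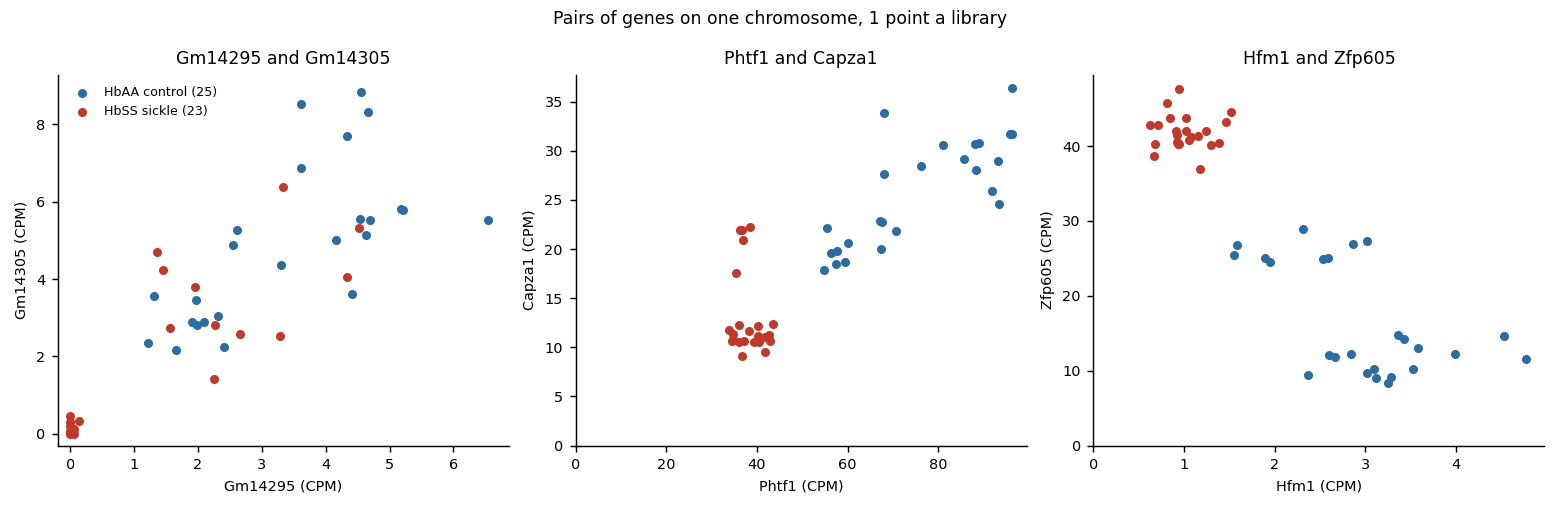
CPM of 3 pairs of members that share a chromosome, 1 point a library (blue, 25 control; red, 23 sickle). Gm14295 and Gm14305 are low together in 12 sickle libraries; Capza1 splits the sickle libraries at like levels of Phtf1; and control libraries split in Zfp605 beside a broad range of Hfm1.

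Between members, 1 of the 45 pairs passed, Gm14295 with Gm14305. Its r was 0.88 and its rho 0.84 (permutation p = 1e-05 each, the smallest that 100000 permutations can give, adjusted 0.00055), with r = 0.86 without the 2 farthest libraries, 0.93 in sickle and 0.71 in control mice, and 0.89 and 0.82 in the earlier and later replicates. The 2 genes share reads, as the stretches above show, and how much of the relation comes from that was not tested. Phtf1 and Capza1, 0.815 Mb apart, had r = 0.44 (permutation p = 0.00195, adjusted 0.0536) and rho = 0.44 (permutation p = 0.00445, adjusted 0.12). That pooled value joined r = 0.83 among control mice and r = -0.35 among sickle mice. Within the earlier and later replicates r was 0.60 and 0.57. Hfm1 and Zfp605 had r = -0.54 (permutation p = 0.00362, adjusted 0.0664) and rho = -0.40 (permutation p = 0.0206, adjusted 0.19), with r = -0.62 in control and 0.07 in sickle mice and -0.43 and -0.45 by replicates. Phtf1 and Gm7120, on different chromosomes, came as near to the threshold, with r = 0.38 (permutation p = 0.00528, adjusted 0.0726) and rho = 0.36 (permutation p = 0.0118, adjusted 0.16). The other pairs on 1 chromosome had r of 0.16 (Phtf1 and A930005H10Rik), 0.24 (A930005H10Rik and Capza1), 0.18 (Sord and Gm14295) and 0.04 (Sord and Gm14305).

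Genes near the members were set beside genes at large. Within 1 Mb of a member 138 other genes were tested and 35 were called for sickle against control in the fit of all groups (25.4%, 18 higher and 17 lower), beside 10.9% of all genes. The median size of their log2 fold change was 0.10, beside 0.06. The comparison is the one that chose the members, and the difference between the 2 shares was not tested. Within 0.5 Mb the share was 32.5% (25 of 77) and within 2 Mb 22.6% (52 of 230). The share varied between members, from 7 of 11 beside Gm7120 and 8 of 24 beside Zfp605 to 0 of 7 beside B3gat2, 0 of 3 beside Gm14295 and 0 of 2 beside Gm14305.

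All 7 called genes beside Gm7120 were lower in sickle mice, as it was. Ccl28, a chemokine gene 13.4 kb away, fell from 4.77 ± 1.30 CPM in control to 1.08 ± 0.998 CPM in sickle libraries (log2 fold change -2.29, SE 0.27, adjusted p = 1.63e-08 by edgeR). The antisense neighbor 3110070M22Rik (-1.11, SE 0.23), which overlaps Gm7120, and BC147527 (-1.23, SE 0.41), at under 1 CPM in control libraries, were also lower. Nnt, the mitochondrial transhydrogenase gene 78.8 kb away, fell from 38.6 ± 4.96 to 23.4 ± 4.76 CPM (-0.72, SE 0.06, adjusted p = 3.07e-11 by edgeR). As a neighbor it was named after its value was seen, and 4833420G17Rik, 1.97 kb away, had a larger change (-0.80, SE 0.12).

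Beside the other members the called genes moved in both directions, 6 higher and 2 lower beside Phtf1, 3 and 1 beside A930005H10Rik, 3 and 0 beside Capza1, 1 and 2 beside Hfm1, 6 and 2 beside Zfp605, and 2 and 3 beside Sord. Named here are the 3 with the largest change beside each, so the names do not show these proportions. Within 1 Mb of Phtf1, Dennd2c (0.98, SE 0.16) and Bcl2l15 (0.95, SE 0.23), both under 4 CPM, were higher in sickle mice, and Olfml3, an extracellular matrix gene, fell from 39.5 ± 8.09 to 22.9 ± 7.97 CPM (-0.81, SE 0.11). Beside Capza1 the 3 called genes were higher, Bcl2l15, Fam19a3 (0.33, SE 0.07) and the lactate transporter gene Slc16a1 (0.18, SE 0.04). All 3 also lie within 1 Mb of Phtf1 and are counted there too. Beside Zfp605 the purinergic receptor gene P2rx2 was lower (-0.71, SE 0.10), from 5.56 ± 1.28 to 3.38 ± 0.663 CPM, as was Gm15446 (-0.49, SE 0.13), and the glycosyltransferase gene Galnt9 was higher (0.52, SE 0.07). Near Hfm1 Brdt (-0.36, SE 0.04) and Rpap2 (-0.10, SE 0.03) were lower and Fam69a (0.19, SE 0.04) was higher. Near Sord AA467197 (-1.01, SE 0.25), B2m, the light chain of MHC class I (-0.35, SE 0.08), and Spg11 (-0.26, SE 0.07) were lower. Near A930005H10Rik Frrs1 (0.53, SE 0.14) and the adhesion gene Vcam1 (0.38, SE 0.10) were higher, and the overlapping Dph5 was lower. All of these passed an adjusted p of 0.05 by edgeR.

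The genes whose level over all 48 libraries was most like that of a member often lay on the same chromosome. Likeness was Pearson's r of log2(CPM + 1), a description that includes the sickle-control difference and carries no test. For Zfp605 they were Gbp10, an interferon-induced GTPase gene (r = 0.92), and Coq5, of coenzyme Q synthesis (0.87), on chromosome 5 at 4.89 and 5.17 Mb from start to start. For Gm7120 they were Ccl28 (0.94) and Nnt (0.88). For Phtf1 they were 5830417I10Rik (0.89) and the potassium channel gene Kcnc4 (0.87), on chromosome 3 at 15.2 and 3.47 Mb. For A930005H10Rik they were Olfml3 (0.80) and Phtf1 (0.79), and for Capza1 Phtf1 (0.84) and Tmem70 on chromosome 1 (0.80). Gm14295 and Gm14305 were most like each other (0.93) and next like Phactr3 (0.86 and 0.78), 1.32 and 1.41 Mb away. The genes most like Sord were 6430562O15Rik of chromosome 13 (0.84) and the complement inhibitor gene Cd59a (0.83), 18.1 Mb away on chromosome 2. Hfm1 was most like Phtf1 (0.86) and Tbc1d1 (0.84), and B3gat2 most like Phtf1 (0.77) and 9430021M05Rik (0.75).

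Other genes of the members' pathways were counted beside the 10.9% called among all genes. Of 9 tested genes of polyol and fructose metabolism 0 were called for sickle against control, with a median log2 fold change of -0.01 where all genes had 0.00. Akr1b3, the aldose reductase gene of that list, did not pass the filter on low counts. It was not tested, so the pathway is covered only in part. Khk, the fructokinase, was at 35.5 ± 6.97 CPM in control and 37.0 ± 5.75 CPM in sickle libraries. Of 9 genes in a list around actin capping, which also holds actin itself (Actb) and the severing factor Cfl1, 0 were called (median -0.03). Capza2, the other broadly expressed α subunit, was at 258 ± 17.5 and 249 ± 16.1 CPM. Of 10 genes of the HNK-1 glycan 1 was called, the sulfotransferase gene Chst10 (0.14, SE 0.05, adjusted p = 0.0387 by edgeR), at 16.6 ± 2.09 and 18.3 ± 1.54 CPM. Of 10 genes of meiotic crossover 0 were called (median 0.12), 6 of them under 1 CPM in both lines, and Phtf2 was level at 23.2 ± 4.97 and 23.1 ± 4.89 CPM. Of 8 tested zinc finger genes of the distal chromosome 2 cluster 1 was called, Gm14440 (-0.85, SE 0.22, adjusted p = 0.00687 by edgeR), at 0.595 ± 0.340 and 0.340 ± 0.210 CPM. That list holds 51 genes, of which 18 are in the count table, so most of it was not tested.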

How the data were processed

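The authors trimmed paired 50-base reads with Trimmomatic and aligned them to mm10 with TopHat2 2.0.13 and Bowtie2 2.2.4.0. The deposited counts are raw featureCounts reads per gene, and the deposited FPKM values are from Cuffnorm. The strand and multiple-match settings and the annotation are not given in the sources used here. Date-like names hold 27 rows (0.237% to 0.262% of counts), which were left out. A further column (1), whose age matches none of the groups, stayed out. Among normoxic control libraries 4 share a replicate number with another and are unnumbered here.

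Counts were fitted with edgeR 4.0.16 (TMM, filterByExpr, quasi-likelihood test), and calls are at a Benjamini-Hochberg adjusted p under 0.05. The SE given with an edgeR value was derived from its test, as the size of the log2 value over the square root of the F statistic. It is least certain where a group is near 0 reads. Spread used limma 3.58.1 on deviations of log2(CPM + 1). These ran in R 4.3.3 with DESeq2 1.42.0 as an alternative, and descriptions and plots in Python 3.11.15 (scipy 1.17.1, pandas 2.3.3, numpy 2.4.6, matplotlib 3.10.9). The edgeR fits of all 8 groups (sickle against control, H/R, age and the Alas2 slope) and the spread test were tried on simulated data. The fits by setting and DESeq2 were not. Positions, by RefSeq GRCm38.p6, came from 23203 symbols and 1070 synonyms, and promoter windows from its table. Intervals cover counting error only. The labels do not say that a library is 1 mouse, and the study's methods do. The 10 genes and the lists were chosen with earlier results of these data known. Named besides them are the 2 genes most like each, up to 3 called genes within 1 Mb with the largest change, and up to 3 called genes per list; other list genes, the overlapping genes, Nnt as a neighbor and the genes in the closing section were named after their values were seen. Alternatives were RLE, no filter, DESeq2, FPKM with limma, a replicate block, a term for earlier against later replicates, Y-linked counts or Alas2 as a covariate, and leaving out libraries; leaving out those with Alb and the spread within earlier and later replicates were added after seeing the data. The number was taken as a pairing from the data where every same-numbered sickle and control pair of a setting correlated above 0.1. That held in normoxia (7 pairs, r from 0.29 to 0.60). Each of those pairs lies on 1 side of the divide between earlier and later replicates. Libraries of other groups on that side correlated too, so this limit cannot show a pairing by number. After H/R most pairs did too, but not every one (12 pairs, r from -0.52 to 0.68).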

Additional observations from a re-analysis of the deposited data

Results flagged for a closer look

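In 80 groups of libraries (10 genes in 8 groups) 7 values stood apart from the rest of their group, where chance gives about 1 in 20 groups. Capza1 was at 20.95 CPM in sickle replicate 6 at 2 months after H/R, where the others lay between 10.6 and 12.2 CPM, and at 17.61 CPM in sickle replicate 4 at 2 months in normoxia, where the others lay between 10.5 and 12.4 CPM. Both are among the 5 sickle libraries with Capza1 near the control level. Zfp605 was at 36.93 CPM in sickle replicate 4 at 5 months in normoxia, below the others at 41.2 to 42.0 CPM. Phtf1 was at 42.91 CPM in sickle replicate 2 of that group, above the others at 34.7 to 37.0 CPM, and Sord at 26.81 CPM in its replicate 5, above the others at 21.2 to 22.4 CPM. Among control mice, Gm7120 was at 35.53 CPM in replicate 4 at 2 months after H/R (others from 9.77 to 19.4 CPM), and B3gat2 at 4.80 CPM in replicate 1 at 5 months in normoxia (others from 2.60 to 3.42 CPM).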

How the results depend on the processing

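Of 4020 values recomputed under an alternative, 3912 were classed as the same, 99 moved, 7 became weaker, 1 stronger and 1 reversed. Sickle-control differences were the same where they kept their direction and moved within the replicate spread. Values for H/R, age, the Alas2 slope, spread and correlation were the same where they stayed on their side of the threshold. Uncalled values among these could change sign and still count as the same, as Capza1 did for age (-0.03 to 0.05 without single libraries). Counts and shares of called genes were the same where they stayed of like size, as 2400 and 1747 did. All 588 values of the 10 sickle-control differences over all groups kept their direction, and 2 of them were not called, Gm14295 (log2 fold change -2.35, SE 0.90) and Gm14305 (-1.83, SE 0.80) with Alas2 as a covariate, where the SEs were larger. Alas2 nearly separates the lines, so nothing is read from this. No member was called for H/R, age or the Alas2 slope under any alternative run. The reversed value was Gm14305 at 2 months in normoxia, with a log2 fold change of 0.04 (0.04489) without control replicate 2 and of -0.54 (-0.5381) at the other end, without sickle replicate 5. Gm14295 was called for spread with log2(CPM + 0.1). The cause of these changes was not tested.

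Counts of called genes moved as follows. Sickle against control over all groups (1747) gave 505 with Alas2 as a covariate, 2640 with the term for earlier against later replicates and 3059 with Y-linked counts as a covariate. Summed Y-linked genes were present in every library, at 96.2 to 168 CPM in control and 102 to 172 CPM in sickle libraries. That covariate thus does not compare males with females. H/R (10) gave 6 with the replicate term, 39 with Y-linked counts, 4 without the unnumbered libraries, 19 without the libraries with Alb, 36 by DESeq2 and 5 to 13 without single libraries. Age (0) gave 2 with the replicate term, 8 with Y-linked counts, 19 by DESeq2 and 0 to 13 without single libraries. The Alas2 slope (858) gave 518 in sickle and 354 in control mice alone. Spread (125) gave 6 from the group median, 74 among genes of at least 5 CPM and 87 to 205 without single libraries. At 2 months in normoxia (235) the count was 132 without the unnumbered libraries, 533 with Y-linked counts and 475 by DESeq2. At 2 months after H/R (24) it was 51 with the replicate term, 47 with Y-linked counts, 8 without Alb libraries, 139 in the fit of all 8 groups, 148 by DESeq2 and 8 to 30 without single libraries. At 5 months in normoxia (153) it was 250 with Y-linked counts and 338 by DESeq2. At 5 months after H/R (352) it was 857 with the replicate term, 1234 with Y-linked counts, 76 without Alb libraries, 768 in the fit of all groups, 755 by DESeq2 and 157 to 326 without single libraries.

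With the replicate number as a block the counts were 2400 over all groups, 4 for H/R, 78 (normoxia) and 143 (H/R) at 2 months, and 286 in normoxic mice of 5 months. This fit also leaves out the unnumbered libraries, which alone gave 1703 over all groups, 4 for H/R, and 132 and 111 in normoxia at 2 and 5 months, so the lower H/R count is not shown to come from the block. Of 19 same-numbered pairs 16 correlated above 0.1, and 8 control libraries correlated best with their own number. Where reads were few, as in Gm14295, depth limits what can be seen.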

Other observations

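For several members, though not for Sord or B3gat2, genes that varied with the member between mice of the same group lay often on its chromosome. Among the 50 genes with the highest within-group r (48 libraries, a ranking made after the values were seen, with no test), 15 shared chromosome 5 with Zfp605, or 30%, where that chromosome holds 6.25% of all genes tested. The share was 26% for Gm14295 and 22% for Gm14305 (chromosome 2 holds 7.93%), 22% for Gm7120 (chromosome 13, 3.63%), 18% for Hfm1, and 12% for Phtf1 and Capza1 (chromosome 3, 4.94%). It was 8% for A930005H10Rik and for Sord, whose chromosomes hold 4.94% and 7.93%. For B3gat2 it was 0 of the 50 genes, where chromosome 1 holds 5.84%. For Zfp605 the share was 28% among control mice alone and 6% among sickle mice alone, and for Hfm1 18% and 2%. It was also higher among control mice for Phtf1 (18% and 14%), Capza1 and B3gat2 (12% and 6% each) and Sord (10% and 6%). For A930005H10Rik it was 6% in each line. For Gm7120 the order was the other way, 6% among control and 18% among sickle mice. So it was for Gm14295 (14% and 20%) and Gm14305 (14% and 24%). The gene with the highest within-group r was Ccl28 for Gm7120 (0.82) and Gbp10 for Zfp605 (0.72), the latter 4.89 Mb away.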
